A study of Mus musculus with 6 samples.

Results

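The genes described here are 49 genes of mitosis and the spindle, chosen by name from the 21684 genes of the deposited table and covering entry into mitosis, chromosome condensation, the spindle and its motors, kinetochores, the spindle checkpoint, the trigger of anaphase and cytokinesis. All 49 were found, and all 49 were expressed well enough to be tested. They were compared between 3 RNA-seq libraries of mouse bone marrow cells of haematopoietic origin that had received an empty vector and 3 libraries of such cells overexpressing RUNX1-RARA. RUNX1-RARA is a fusion protein made of RUNX1, which controls genes in developing blood cells, and RARA, a receptor for retinoic acid that is rearranged in acute promyelocytic leukaemia. The labels give no mouse strain, age, promoter, time after transduction or sorting step, and do not say whether a group's 3 libraries had separate mice or cultures as their source; the p-values therefore speak of the spread among these libraries alone, which may be technical.

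Mitosis is driven by cyclin-dependent kinase 1 (CDK1) with cyclins A and B, together with the Polo and Aurora kinases. Condensin compacts the chromosomes, kinesin motors and microtubule-associated proteins build the spindle, and kinetochores tie chromosomes to it. The spindle checkpoint holds back the anaphase-promoting complex (APC/C) until every kinetochore is attached; the APC/C with CDC20 then destroys securin and cyclin B, and separase cuts cohesin. Most of these genes are transcribed late in the cell cycle and are kept silent in resting cells, so their RNA is widely used as a sign of dividing cells. In bone marrow, progenitors and early granulocyte precursors divide and mature neutrophils do not.

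Late cell-cycle promoters often carry a cell-cycle genes homology region (CHR), bound by the MuvB complex, downstream of CCAAT boxes bound by NF-Y. Promoter windows from 250 bases before to 50 bases after the start site were available from RefSeq (GRCm38.p6) for 40 of the 49 genes. TTTGAA, the core of the CHR, was present on either strand for 30 of these 40 genes (75%), against 20.2% of all 27025 genes with windows. A gene counted when any of its windows held a match. CCAAT on either strand was present for 75%, against 41.1%. Both motifs stood in the same window for 65%, against 7.97%. Matches of the 2 motifs can share an edge base, and a match is a description of the letters, not a shown binding site. Some of the windows follow, from 130 bases before to 50 bases after the start, 5′ to 3′ on the gene's strand with TTTGAA and CCAAT, or their reverse complements, in capitals. They are chosen examples, and every window shown carries both motifs. Aurka, Plk1 and Kif23 are among the 5 genes lower in RUNX1-RARA cells under every scaling described below. The others of those 5, Nusap1 and Smc2, are not shown, and neither motif was found for Nusap1. Espl1, Ncapd2 and Cdc20 were the largest rises, and Ccnb2 was not called in either direction on the deposited scale.
Aurka: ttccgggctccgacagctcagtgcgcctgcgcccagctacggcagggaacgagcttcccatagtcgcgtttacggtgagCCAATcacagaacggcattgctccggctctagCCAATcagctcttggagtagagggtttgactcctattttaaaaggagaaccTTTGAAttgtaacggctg
Plk1: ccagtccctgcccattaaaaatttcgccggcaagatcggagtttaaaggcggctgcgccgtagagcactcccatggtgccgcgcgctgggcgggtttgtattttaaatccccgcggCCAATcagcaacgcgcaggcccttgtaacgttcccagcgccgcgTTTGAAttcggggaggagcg
Kif23: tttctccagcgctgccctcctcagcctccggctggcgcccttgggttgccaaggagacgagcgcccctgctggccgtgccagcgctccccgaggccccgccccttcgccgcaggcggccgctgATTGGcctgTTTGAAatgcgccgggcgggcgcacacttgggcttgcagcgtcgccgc
Espl1: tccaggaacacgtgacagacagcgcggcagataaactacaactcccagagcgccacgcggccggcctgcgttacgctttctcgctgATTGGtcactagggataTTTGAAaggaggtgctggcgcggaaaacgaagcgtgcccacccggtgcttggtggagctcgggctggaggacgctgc
Cdc20: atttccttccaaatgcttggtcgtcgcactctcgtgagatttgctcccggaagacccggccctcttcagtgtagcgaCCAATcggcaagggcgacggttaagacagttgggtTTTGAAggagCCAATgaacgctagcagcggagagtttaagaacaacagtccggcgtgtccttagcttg
Ncapd2: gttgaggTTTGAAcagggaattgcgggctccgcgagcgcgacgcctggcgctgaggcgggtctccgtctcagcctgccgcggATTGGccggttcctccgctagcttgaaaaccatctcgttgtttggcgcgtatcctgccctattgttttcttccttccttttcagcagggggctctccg
Ccnb2: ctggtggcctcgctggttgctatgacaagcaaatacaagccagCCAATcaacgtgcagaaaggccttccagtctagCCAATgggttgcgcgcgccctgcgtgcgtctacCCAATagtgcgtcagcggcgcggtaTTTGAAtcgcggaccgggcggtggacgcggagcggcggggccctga
The windows lie at chr2:172370521-172370700 (minus strand) for Aurka, chr7:122159305-122159484 (plus) for Plk1, chr9:61946750-61946929 (minus) for Kif23, chr15:102296163-102296342 (plus) for Espl1, chr4:118437294-118437473 (minus) for Cdc20, chr6:125191537-125191716 (minus) for Ncapd2 and chr9:70421505-70421684 (minus) for Ccnb2. Both motifs were found in the windows of genes that went either way. TTTGAA was found for 13 of the 19 genes called lower, 5 of 5 called higher and 12 of 16 not called. For CCAAT the counts were 14 of 19, 5 of 5 and 11 of 16.

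On the deposited scale, fragments per kilobase of gene scaled to library depth (FPKM), 23 of the 49 genes were lower in RUNX1-RARA cells, 6 were higher and 20 passed in neither direction. These calls come from limma on log2(FPKM + 1) with Benjamini-Hochberg adjusted p under 0.05. Of all 10901 genes tested, 77.7% were called, 46.0% higher and 31.7% lower, so the share of mitosis genes called (59.2%) was under the background, the share higher well under it and the share lower above it. Changes were small. The falls that passed were 1.11-fold to 1.49-fold and the rises 1.12-fold to 1.6-fold, and Espl1 alone passed 1.5-fold, which 40.8% of all tested genes did. The median absolute log2 fold change was 0.18 for the mitosis genes and 0.40 for all tested genes, while the median standard errors were close, at 0.06 and 0.07.

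The direction of the family as a whole depended on how libraries were scaled. On the deposited scale the median log2 fold change (RUNX1-RARA minus empty vector) was -0.12 for the mitosis genes and 0.11 for all tested genes. Scaling by trimmed mean of M-values (TMM), which moved the median of all genes by -0.11 to 0.00, gave 2 higher and 35 lower, with 75.8% of all tested genes called, 37.7% higher and 38.1% lower. Leaving the 13 mitochondrially encoded genes out of the library sums, which moved the median of all genes by 0.24, gave 23 higher and 5 lower, with 85% of all tested genes called, 63.2% higher and 21.7% lower, and the median of the mitosis genes turned to 0.14. Those 13 genes took 7.96% to 10.6% of the FPKM total with the empty vector and 21.9% to 26.3% with RUNX1-RARA. Leaving 20 mature myeloid marker genes out as well, a scaling chosen after seeing the data, brought the counts back to 6 higher and 23 lower, with 78% of all tested genes called, 46.7% higher and 31.4% lower. A scaling shifts all genes nearly alike, so the distance to other genes hardly moves with it: the median of the mitosis genes was 0.23 log2 units below that of all genes on the deposited scale and 43 of the 49 genes lay below the all-gene median. With no filter on low genes, which adds weakly expressed genes to the background, the distance was 0.14 and 39 genes lay below. In the plot of log2 fold changes by gene, the TMM values and those without mitochondrial genes are shifted together, to either side of the deposited scale.

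**Figure D1:**
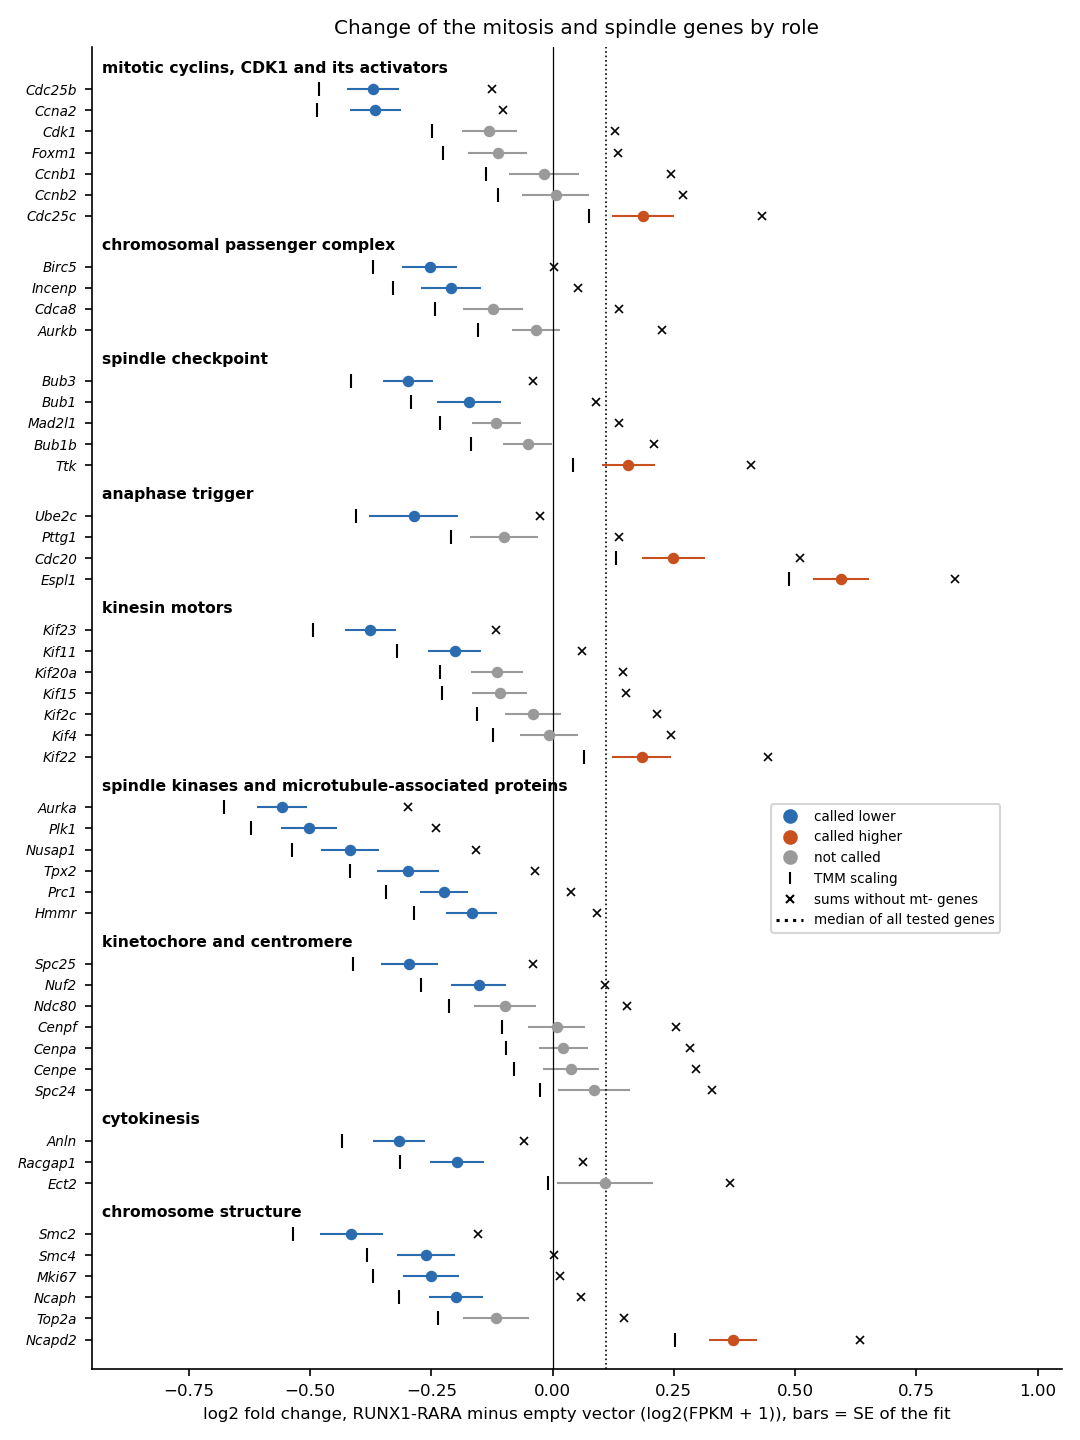
Log2 fold change of each of the 49 genes (x axis, log2(FPKM + 1), RUNX1-RARA minus empty vector) by role, with points and bars showing the estimate and its standard error on the deposited scale, ticks the TMM value and crosses the value with mitochondrial genes left out of the sums. Spindle kinases and microtubule-associated proteins sit furthest left, Espl1 and Ncapd2 furthest right; 11 of the 23 genes called lower cross 0 to the right without mitochondrial genes, and 6 genes not called cross 0 to the left under TMM.

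**Figure D2:**
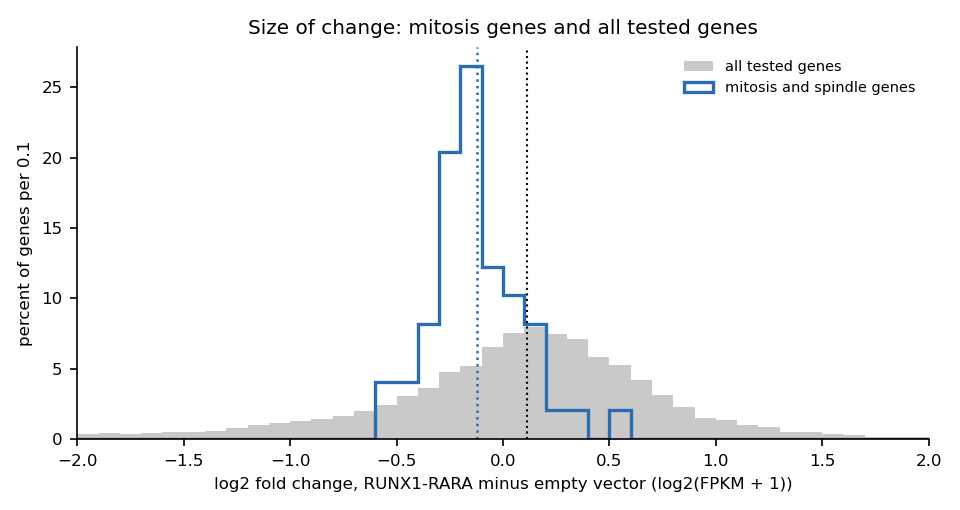
Distribution of log2 fold changes (x axis, RUNX1-RARA minus empty vector, deposited scale) as percent of genes per 0.1 log2 units (y axis) for the 49 mitosis and spindle genes (line) and all 10901 tested genes (grey), with dotted lines at the medians of -0.12 and 0.11. The mitosis genes form a narrow peak below 0 on this scale (their median is 0.14 without mitochondrial genes in the sums) inside a wide distribution of all genes.

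Many marker genes of blood cell types differed far more between the groups than the mitosis genes did. All 12 mature neutrophil markers were lower in RUNX1-RARA libraries, with a summed level of 57772 to 64760 FPKM in empty vector and 2512 to 3078 FPKM in RUNX1-RARA libraries. Most of that sum came from S100a9, S100a8 and Ngp (means of 32557, 14809 and 9298 FPKM in empty vector). The falls were uneven: Cxcr2 fell least, 1.63-fold (80.8 to 49.7 FPKM), while Ltf fell 701-fold (1650 to 2.35 FPKM). Retnlg and Mmp9 fell by larger ratios, to means of 0.0957 and 0.0427 FPKM. Monocyte and macrophage markers fell in 6 of 7 tested cases (summed level 4366 to 4437 against 156 to 163 FPKM). Of 5 tested progenitor markers 4 rose and Meis1 fell (summed level 138 to 141 against 358 to 372 FPKM). Erythroid markers summed to 2.24 to 3.35 against 28.5 to 33.0 FPKM, a rise carried by Hbb-bt (0.875 to 28.3 FPKM). Stromal and endothelial markers summed to 1.38 to 1.48 against 17.1 to 20.2 FPKM through Pdgfrb (0.603 to 18.7 FPKM), while Col1a1 was at 0.626 and 0, Kdr at 0.182 and 0.0407 and Cxcl12 listed at 0 in all libraries. B cell markers summed to 2.89 to 3.25 against 0.272 to 0.458 FPKM. T and NK cell markers, all too low to be tested, summed to 0.451 to 0.573 against 0.787 to 1.27 FPKM with Ncr1 listed at 0. Within that sum Cd3g went from 0.032 to 0.968 FPKM and Cd3d from 0.440 to 0.045 FPKM. The part of all these marker genes in the mitosis results was not tested. In bulk samples fewer cells of a type and less RNA per cell cannot be told apart. Replicates resembled each other (Pearson's r across genes 0.996 to 0.998 within and 0.851 to 0.857 between groups), 10375 to 10552 genes per library reached 1 FPKM, and the estimated depth was 26.7 M to 89.6 M reads.

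The mitosis genes were well covered. Their mean level ran from 5.89 FPKM (Espl1) to 163 FPKM (Mki67) in empty vector and from 7.82 FPKM (Pttg1) to 137 FPKM (Mki67) in RUNX1-RARA libraries, and the median gene had 37.7 and 34.9 FPKM against 10.01 FPKM for all tested genes in empty vector. At the estimated depths the fewest reads behind a value of these genes in any library were about 428. Together they made up 0.498% to 0.527% of all FPKM in empty vector and 0.448% to 0.485% in RUNX1-RARA libraries, ranges that did not overlap. Without mitochondrial genes in the total the order turned, to 0.555% to 0.573% against 0.597% to 0.621%, and without mature myeloid markers as well it turned back, to 0.677% to 0.692% against 0.603% to 0.627%. The 2 groups did not overlap for 32 of the 49 genes (26 lower and 6 higher in RUNX1-RARA), against 79.1% of all tested genes (32.4% lower and 46.8% higher). Within groups, empty vector replicate 2 was the highest library for 28 of the 49 genes and RUNX1-RARA replicate 3 for 29, against 42.6% and 43.2% of all tested genes.

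All 6 spindle kinases and microtubule-associated proteins fell on the deposited scale, and this was the group with the lowest median (-0.36). Aurka encodes Aurora A, the kinase of centrosome maturation and spindle assembly, and lies on chromosome 2 from 172356190 to 172370535 on the minus strand (mm10). Its level was 55.0, 53.1 and 51.3 FPKM in empty vector replicates 1 to 3 and 36.0, 35.0 and 36.2 FPKM in RUNX1-RARA replicates 1 to 3. All RUNX1-RARA libraries lay far below all empty vector libraries, and the fall of 1.49-fold was the largest of the 49 (log2 fold change -0.56 ± 0.05 SE, adjusted p = 3.2e-06, limma, n = 3 per group). Plk1, the Polo-like kinase of mitotic entry and spindle formation (chromosome 7, 122159439 to 122169873, plus strand), had 54.9, 53.0 and 53.4 FPKM against 39.0, 39.0 and 35.2 FPKM. It too had no overlap, at -0.50 ± 0.06 SE (adjusted p = 1.59e-05, limma). Nusap1, which bundles spindle microtubules around chromosomes (chromosome 2, 119618298 to 119651244, plus strand), had 57.0, 51.1 and 50.2 FPKM against 38.3, 39.2 and 39.98 FPKM. Its groups were again apart, at -0.42 ± 0.06 SE (adjusted p = 9.54e-05, limma). Nusap1 shares 172 exonic bases with Oip5 on the opposite strand and Plk1 shares 156 of its 2199 with Gm44985, and without a stated strand setting such reads cannot be told apart. Tpx2, the activator of Aurora A, Prc1, the bundler of midzone microtubules, and Hmmr, a spindle assembly factor, fell by 0.30, 0.22 and 0.17 on the log2 scale, and without mitochondrial genes in the sums they were at -0.04, 0.04 and 0.09, none of them called. Hmmr lost its call without RUNX1-RARA replicate 1 or 2 and under quantile normalization (adjusted p = 0.0631, 0.0541 and 0.129, limma).

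**Figure D3:**
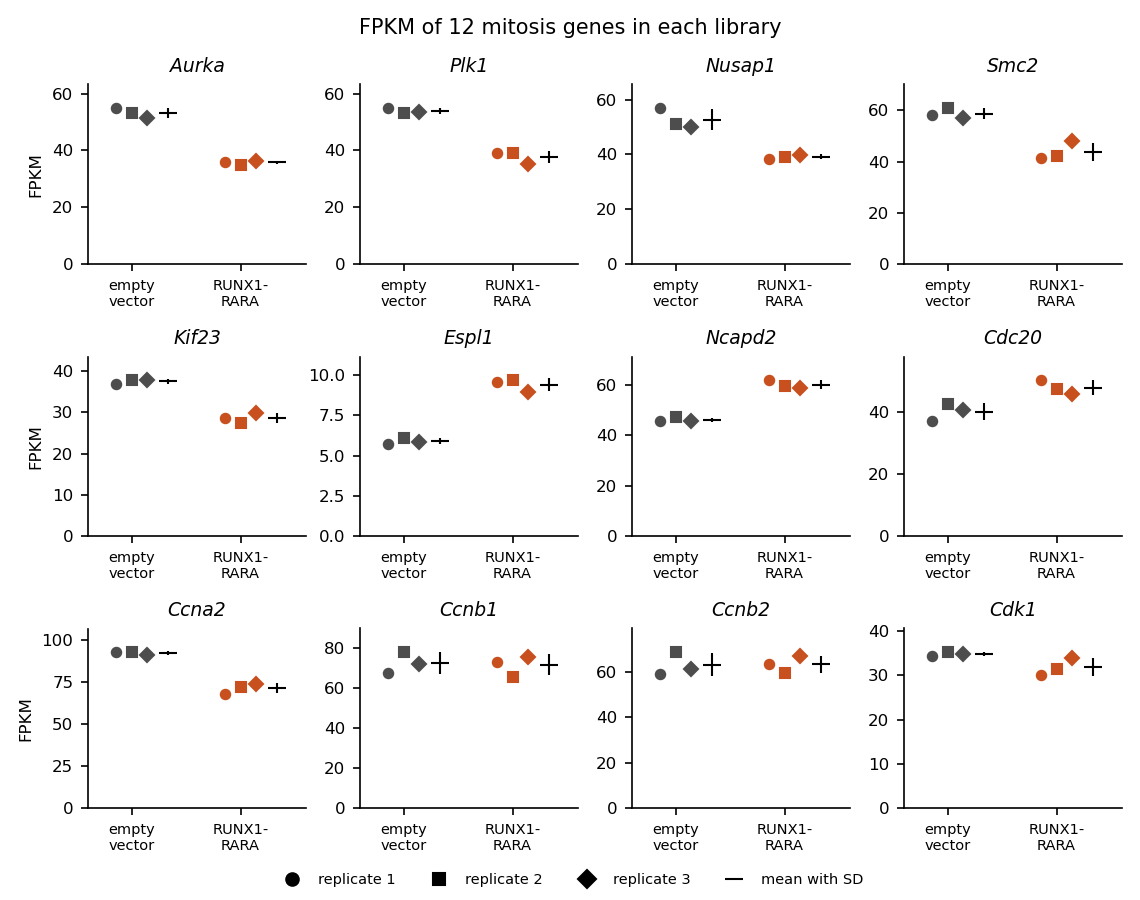
FPKM (y axis, from 0) of 12 genes in each of the 6 libraries, by group (x axis), with the mean and SD (n = 3) beside the points. Aurka, Plk1, Nusap1, Smc2, Kif23 and Ccna2 are lower and Espl1, Ncapd2 and Cdc20 higher in every RUNX1-RARA library on this deposited scale, while Ccnb1 and Ccnb2 overlap. Cdk1 is also lower in every RUNX1-RARA library but by a narrow gap, and was not called (0.13 without mitochondrial genes in the sums).

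Among the cyclins, CDK1 and their activators, cyclin A and 1 phosphatase fell on the deposited scale, and the B cyclins were near level. Ccna2, cyclin A2 of S phase and mitotic entry, had 92.9, 93.1 and 91.0 FPKM in empty vector and 68.1, 72.3 and 74.0 FPKM in RUNX1-RARA libraries. The groups were apart, at -0.37 ± 0.05 SE (adjusted p = 1.1e-04, limma), and without mitochondrial genes in the sums the call was lost (-0.10, adjusted p = 0.112). Of its exonic bases 510 overlap Exosc9 on the opposite strand. Ccnb1, the main cyclin of mitosis, had 67.5, 78.1 and 71.8 FPKM against 73.3, 65.6 and 75.7 FPKM, and Ccnb2, a second B cyclin, had 59.2, 69.0 and 61.6 FPKM against 63.6, 59.8 and 67.0 FPKM. Both overlapped between groups and neither was called on the deposited scale. The 95% intervals were -0.18 to 0.14 for Ccnb1 and -0.15 to 0.16 for Ccnb2 on the log2 scale. Without mitochondrial genes in the sums both were called higher (0.24 and 0.27, adjusted p = 0.00531 and 0.00274, limma). That scaling called 63.2% of all tested genes higher. Ccnb1 and Ccnb2 each have an annotated pseudogene copy, so their levels are uncertain. Cdc25b, a phosphatase that activates CDK1, had 12.407, 12.575 and 13.004 FPKM against 9.837, 9.661 and 9.215 FPKM. Its groups did not overlap (-0.37 ± 0.05 SE, adjusted p = 1.04e-04, limma), and without mitochondrial genes in the sums the value was -0.13 (adjusted p = 0.0531). Its relative Cdc25c, on chromosome 18, shares 623 of its 4919 exonic bases with Gm3550 on the opposite strand. Cdc25c went the other way, with 9.807, 10.861 and 10.170 FPKM against 12.413, 10.965 and 12.137 FPKM. Its groups were close but apart (0.19 ± 0.06 SE, adjusted p = 0.0223, limma), and the call was lost under TMM (0.07) and without empty vector replicate 1 or 3 or RUNX1-RARA replicate 1 (adjusted p = 0.078, 0.0613 and 0.0864). Cdk1 and Foxm1, a transcription factor of late cell-cycle genes, were not called, at -0.13 and -0.11 (0.13 and 0.14 without mitochondrial genes), and both were called lower under TMM.

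The anaphase trigger held the largest rise of the 49 genes beside a fall. Espl1, which encodes separase, the protease that cuts cohesin (chromosome 15, 102296266 to 102324357, plus strand), had 5.73, 6.09 and 5.86 FPKM in empty vector and 9.56, 9.71 and 8.96 FPKM in RUNX1-RARA libraries. Every RUNX1-RARA library was well above every empty vector library (1.6-fold; 0.59 ± 0.06 SE, adjusted p = 4.69e-06, limma). Pttg1, securin, the inhibitor of separase, was not called, at 8.46 ± 0.67 against 7.82 ± 0.46 FPKM (SD, n = 3). Cdc20, the APC/C activator that the checkpoint restrains, had 37.2, 42.7 and 40.9 FPKM against 50.5, 47.6 and 45.8 FPKM. Its groups were apart (0.25 ± 0.06 SE, adjusted p = 0.00518, limma), but under TMM the value of 0.13 was not called. Ube2c, the ubiquitin-conjugating enzyme that works with the APC/C, shares 592 of its 2600 exonic bases with Tnnc2 on the opposite strand. Ube2c had 48.4, 38.8 and 39.5 FPKM against 35.1, 36.9 and 31.0 FPKM. The groups came close without overlapping and empty vector replicate 1 stood highest (-0.29 ± 0.09 SE, adjusted p = 0.0151, limma), and the call was lost without mitochondrial genes in the sums (-0.03, adjusted p = 0.801), under quantile normalization (adjusted p = 0.0692) and without RUNX1-RARA replicate 3 (adjusted p = 0.0529).

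Chromosome structure genes fell in 4 of 6 cases, with 1 rise inside the same complex. Smc2, an ATPase subunit shared by the condensins (chromosome 4, 52439243 to 52488260, plus strand), had 58.3, 61.0 and 57.0 FPKM in empty vector and 41.5, 42.1 and 48.0 FPKM in RUNX1-RARA libraries. The groups were apart, with RUNX1-RARA replicate 3 nearest to the controls (-0.42 ± 0.07 SE, adjusted p = 1.84e-04, limma). Ncapd2, a regulatory subunit of condensin I (chromosome 6, 125168007 to 125191701, minus strand), had 45.7, 47.0 and 45.6 FPKM against 61.9, 59.3 and 58.7 FPKM. All 3 RUNX1-RARA libraries were higher (0.37 ± 0.05 SE, adjusted p = 6.00e-05, limma). Of its 6267 exonic bases 472 overlap Gm28967 and Scarna10 on the same strand, so reads in these bases cannot be assigned. Smc4, the partner ATPase of Smc2, Ncaph, the condensin I kleisin, and Mki67, which coats mitotic chromosomes and gives the Ki-67 antigen, fell by 0.26, 0.20 and 0.25 on the log2 scale, values that came to 0.0035, 0.06 and 0.01 without mitochondrial genes in the sums. Top2a, topoisomerase II alpha, was not called (-0.12; 0.15 without mitochondrial genes).

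Of 7 kinesins 2 fell, 1 rose and 4 were not called. Kif23, the motor of the centralspindlin complex at the midzone (chromosome 9, 61915905 to 61946774, minus strand), had 36.9, 37.7 and 37.9 FPKM in empty vector and 28.8, 27.4 and 29.9 FPKM in RUNX1-RARA libraries. The groups were tight and apart (-0.38 ± 0.05 SE, adjusted p = 7.84e-05, limma). Kif11, the motor that pushes spindle poles apart, had 71.5, 72.0 and 68.3 FPKM against 59.4, 60.1 and 64.3 FPKM. Its groups did not overlap (-0.20 ± 0.05 SE, adjusted p = 0.00622, limma), although without mitochondrial genes in the sums the value was 0.06. Kif22, a motor on chromosome arms, rose by 0.18 on the log2 scale (adjusted p = 0.0192, limma). Its call was lost under TMM (0.06) and without empty vector replicate 1 or 3 or RUNX1-RARA replicate 1 or 3 (adjusted p = 0.0693, 0.0592, 0.0639 and 0.0525), and it has an annotated pseudogene copy. Kif20a, a midzone motor, Kif15, a second spindle motor, Kif2c, which depolymerises microtubules at centromeres, and Kif4, the mouse counterpart of human KIF4A, were not called, at -0.11, -0.11, -0.04 and -0.01 (each above 0 without mitochondrial genes in the sums).

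Spindle checkpoint genes split. Bub3, which brings the BUB kinases to kinetochores, had 33.6, 34.2 and 32.9 FPKM in empty vector and 28.0, 27.4 and 26.0 FPKM in RUNX1-RARA libraries. The groups did not overlap (-0.30 ± 0.05 SE, adjusted p = 3.79e-04, limma), but without mitochondrial genes in the sums Bub3 was not called (-0.04, adjusted p = 0.492). Bub1, a checkpoint kinase, had 50.4, 51.3 and 46.3 FPKM against 41.3, 42.5 and 47.3 FPKM. Its groups overlapped through RUNX1-RARA replicate 3, and the call (-0.17 ± 0.07 SE, adjusted p = 0.0355, limma) was lost without empty vector replicate 1 or 2 or RUNX1-RARA replicate 1 or 2 (adjusted p = 0.0895, 0.115, 0.142 and 0.101), with a value of 0.09 without mitochondrial genes in the sums. Bub1 was also not called with equal library sums, upper-quartile scaling or quantile normalization (adjusted p = 0.0846, 0.0512 and 0.164, limma). Ttk, the kinase MPS1 that starts checkpoint signalling, rose by 0.16 on the log2 scale (adjusted p = 0.0245, limma). That call was lost under TMM (0.04) and without empty vector replicate 1 or 3 or RUNX1-RARA replicate 1 (adjusted p = 0.0823, 0.0613 and 0.0885). Mad2l1 (MAD2) and Bub1b (BUBR1), both parts of the inhibitor of the APC/C, were not called, at -0.12 and -0.05 (0.14 and 0.21 without mitochondrial genes).

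Of 7 kinetochore and centromere genes 2 fell and 5 were not called on the deposited scale (median 0.01). Without mitochondrial genes in the sums 5 were called higher, as were 63.2% of all tested genes. Spc25, a subunit of the NDC80 complex that holds microtubules, had 20.6, 22.6 and 21.7 FPKM in empty vector and 16.6, 17.4 and 18.3 FPKM in RUNX1-RARA libraries. The groups were apart (-0.30 ± 0.06 SE, adjusted p = 9.22e-04, limma), but without mitochondrial genes in the sums Spc25 was not called (-0.04, adjusted p = 0.52). Nuf2, of the same complex, had 41.6, 40.7 and 38.8 FPKM against 36.3, 34.4 and 37.9 FPKM. The gap was narrow (-0.15 ± 0.06 SE, adjusted p = 0.0293, limma; 0.11 without mitochondrial genes), and the call was lost without empty vector replicate 1 or 2 or RUNX1-RARA replicate 1 or 2 (adjusted p = 0.0918, 0.0793, 0.0714 and 0.122). Nuf2 was also not called with equal library sums or quantile normalization (adjusted p = 0.0793 and 0.159, limma). Ndc80 itself was not called (-0.10; 0.15 without mitochondrial genes). Nor were Spc24, the partner of Spc25, Cenpa, the centromeric histone, Cenpe, a kinetochore motor, and Cenpf, a kinetochore corona protein, at 0.09, 0.02, 0.04 and 0.01 (all below 0 under TMM).

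In the chromosomal passenger complex, which corrects faulty attachments and steers cytokinesis, 2 of 4 genes fell. Birc5, survivin, had 27.7, 29.7 and 29.7 FPKM in empty vector and 23.6, 23.5 and 25.5 FPKM in RUNX1-RARA libraries. Incenp, the scaffold, had 63.2, 59.3 and 65.5 FPKM against 56.8, 54.7 and 50.8 FPKM. Neither overlapped between groups (-0.25 ± 0.06 and -0.21 ± 0.06 SE, adjusted p = 0.00206 and 0.0102, limma), and without mitochondrial genes in the sums they came to 0.0034 and 0.05. Incenp was also not called under quantile normalization (adjusted p = 0.0603, limma). Cdca8, borealin, and Aurkb, the kinase Aurora B, were not called, at -0.12 and -0.03 (0.14 and 0.23 without mitochondrial genes).

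Of the cytokinesis genes, Anln, the ring scaffold anillin, had 27.6, 29.3 and 28.5 FPKM in empty vector and 23.3, 21.8 and 23.0 FPKM in RUNX1-RARA libraries. Racgap1, which pairs with Kif23 in centralspindlin, had 44.1, 44.1 and 42.2 FPKM against 38.0, 39.6 and 35.8 FPKM. Both were without overlap (-0.32 ± 0.05 and -0.20 ± 0.06 SE, adjusted p = 2.91e-04 and 0.00791, limma), and neither was called without mitochondrial genes in the sums (-0.06 and 0.06, adjusted p = 0.281 and 0.338). Ect2, which activates RhoA at the cleavage site, was not called (0.11, and -0.01 under TMM). Without mitochondrial genes in the sums it was called higher (0.37, adjusted p = 0.00444, limma). Ect2 varied most among RUNX1-RARA libraries, at 25.2, 26.7 and 33.5 FPKM.

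Under all 7 scalings, Aurka, Plk1, Nusap1, Smc2 and Kif23 were called lower and Espl1 and Ncapd2 higher. These 7 genes also passed without any single library, which was checked on the deposited scale only. Without mitochondrial genes in the sums the 5 falls shrank to -0.30, -0.24, -0.16, -0.15 and -0.12, in the order named. There Nusap1, Smc2 and Kif23 only just passed (adjusted p = 0.0384, 0.0438 and 0.0485, limma). Over all tested genes 21.7% were called lower and 37.7% higher under all 7 scalings. All 23 falls of the deposited scale also passed under TMM and 5 passed without mitochondrial genes in the sums, where 11 of them were above 0; of the 6 rises, 2 passed under TMM and 6 without mitochondrial genes. For the 20 genes not called on the deposited scale, the 95% intervals of that scale all lay between -0.27 and 0.33 in log2 units. The smallest called change had a size of 0.15 and the largest one not called 0.13.

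Ratios of partner genes within a library do not depend on the scaling between libraries. The 18 ratios computed were chosen after values had been seen, so they are given as a description only. For 13 the groups did not overlap (exact permutation p = 0.1 each, the smallest possible with 3 libraries per group). The share among ratios of other gene pairs was not computed, and 79.1% of all single tested genes did not overlap either. The ratio of Ncapd2 to Smc2 was 0.7845, 0.7717 and 0.8004 in empty vector and 1.49, 1.41 and 1.22 in RUNX1-RARA libraries, 1.75-fold higher. Espl1 to Pttg1, separase to its inhibitor, went from 0.628, 0.783 and 0.690 to 1.19, 1.19 and 1.23. In both ratios the groups lay far apart. The ratio of Aurka to Aurkb fell from 1.21 ± 0.07 to 0.837 ± 0.033 (SD, n = 3), Cdc25b to Cdc25c from 1.23 ± 0.07 to 0.811 ± 0.063, Ube2c to Cdc20 from 1.058 ± 0.213 to 0.716 ± 0.052 and Ccna2 to Ccnb1 from 1.28 ± 0.09 to 1.003 ± 0.089. Ccnb2 to Ccnb1 (0.873 ± 0.014 and 0.888 ± 0.021), Ndc80 to Nuf2, Bub1 to Bub1b, and Cdca8 and Incenp to Aurkb overlapped.

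**Figure D4:**
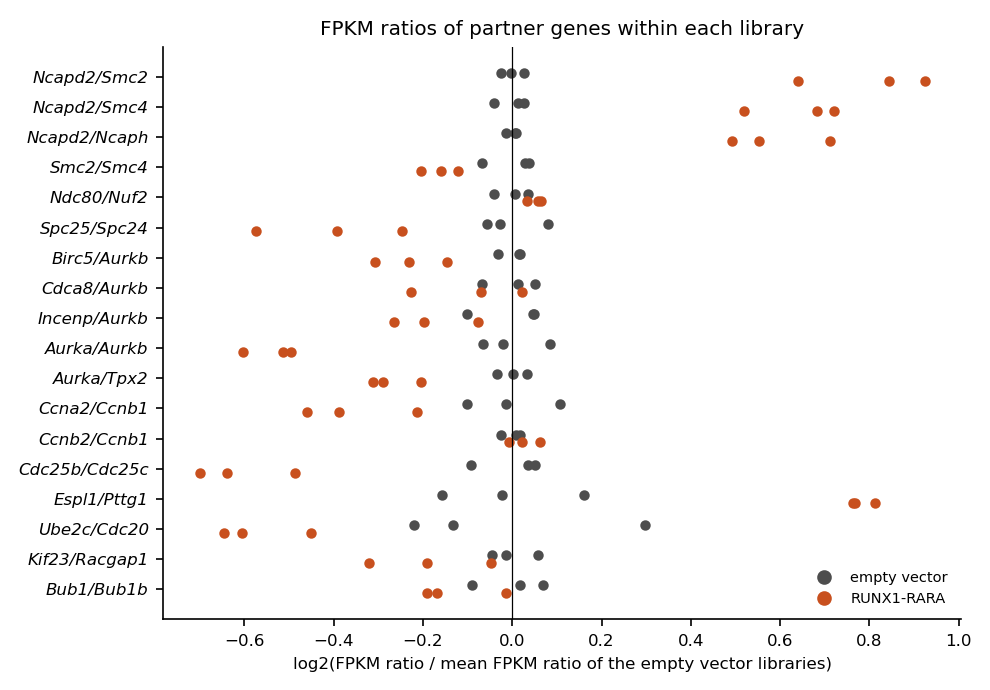
Log2 of the FPKM ratio of 18 pairs of partner genes in each library, relative to the mean ratio of the empty vector libraries (x axis), with 1 point per library. Ncapd2 over its condensin partners and Espl1 over Pttg1 shifted right in all RUNX1-RARA libraries, Aurka/Aurkb, Cdc25b/Cdc25c and Ube2c/Cdc20 shifted left, and Ccnb2/Ccnb1 and Ndc80/Nuf2 overlapped.

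The rest of the mitotic machinery, with its transcription factors, made 144 tested genes in 7 lists. Of these 54 were higher, 41 lower and 49 not called, with a median of 0.05 against 0.11 for all tested genes. Under TMM the balance turned to 43 higher and 55 lower, and without mitochondrial genes in the sums it was 95 and 13. Counts per list are to be read against the 46.0% higher and 31.7% lower among all tested genes. These shares were 37.7% and 38.1% under TMM, and 63.2% and 21.7% without mitochondrial genes in the sums. Of 36 other genes of the spindle, mitotic entry and cytokinesis, 11 rose and 14 fell (8 and 17 under TMM, 20 and 6 without mitochondrial genes). Bora, which activates PLK1 together with Aurora A, had 18.4, 20.9 and 18.2 FPKM in empty vector and 47.3, 46.4 and 49.5 FPKM in RUNX1-RARA libraries. That is 2.49-fold higher with a wide gap (log2 fold change 1.28, adjusted p = 2.74e-08, limma), in cells where Aurka and Plk1 themselves fell. Cdc25a, the third CDC25 phosphatase, fell from 25.0 ± 0.61 to 14.8 ± 0.56 FPKM (SD, n = 3; adjusted p = 5.69e-07, limma).

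APC/C subunits and regulators rose in 10 of 17 cases (58.8%) and fell in 1 (8 and 2 under TMM, 15 and 0 without mitochondrial genes). They were led by Anapc2, the cullin subunit, at 17.7 ± 0.96 and 24.8 ± 1.67 FPKM, and Fzr1, the late activator CDH1, at 9.78 ± 0.48 and 13.7 ± 1.65 FPKM. Of 8 subunits of augmin, which branches spindle microtubules, 7 rose and 1 fell, led by Haus3 and Haus6 (log2 fold changes 0.70 and 0.50). Of 10 centrosome genes listed with them 4 rose and 4 fell. Over these 18 genes together 11 rose (61.1%) and 5 fell (11 and 6 under TMM, 12 and 0 without mitochondrial genes). Other kinetochore and centromere genes rose in 13 of 31 cases (41.9%, near the background) and fell in 5 (10 and 8 under TMM, 24 and 2 without mitochondrial genes). Mis18a, a loader of the centromeric histone, went from 27.3 ± 2.81 to 17.0 ± 1.80 FPKM and Cenpi, of the inner kinetochore, from 6.31 ± 0.29 to 9.99 ± 0.56 FPKM. Cohesin and its regulators rose in 3 of 16 cases and fell in 7 (3 and 10 under TMM, 9 and 2 without mitochondrial genes). The subunit Stag2 (-0.60) and the protector Sgo2a (-0.49) changed most. Of 4 other condensin subunits Ncaph2 rose (0.47) and Ncapg2 fell (-0.33; -0.08 and not called without mitochondrial genes), so both condensin complexes held subunits that went in opposite directions on the deposited scale. The 22 transcription genes of the cell cycle were MuvB, DREAM and NF-Y subunits together with E2F factors, their DP partners and RB proteins. Of these 5 rose and 8 fell (2 and 10 under TMM, 12 and 3 without mitochondrial genes). E2f2, an E2F factor, fell 3.5-fold, from 18.5 ± 0.73 to 5.27 ± 0.20 FPKM, and Tfdp2, an E2F partner, rose from 2.31 ± 0.11 to 5.03 ± 0.39 FPKM.

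DNA replication genes, active just before mitosis, rose in 16 of 38 cases (42.1%, near the background) and fell in 8 on the deposited scale. Under TMM the balance turned to 9 and 13, and without mitochondrial genes in the sums it was 30 and 2. Rrm2, a subunit of ribonucleotide reductase, fell from 167 ± 7.6 to 95.1 ± 3.9 FPKM and Pole, the leading-strand polymerase, rose from 8.99 ± 0.27 to 15.0 ± 0.28 FPKM. The summed level of the 49 mitosis genes over that of the replication genes was 1.53, 1.46 and 1.51 in empty vector and 1.34, 1.35 and 1.34 in RUNX1-RARA libraries. The groups did not overlap (1.4998 ± 0.036 and 1.34 ± 0.005, SD, n = 3), and this ratio is free of the scaling. Of 12 tested G1 cyclins, kinases and inhibitors 5 rose and 7 fell, led by the inhibitor Cdkn2d, from 23.7 ± 1.09 to 3.06 ± 0.49 FPKM, and cyclin D1 (Ccnd1), from 2.49 ± 0.25 to 0.477 ± 0.111 FPKM.

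**Figure D5:**
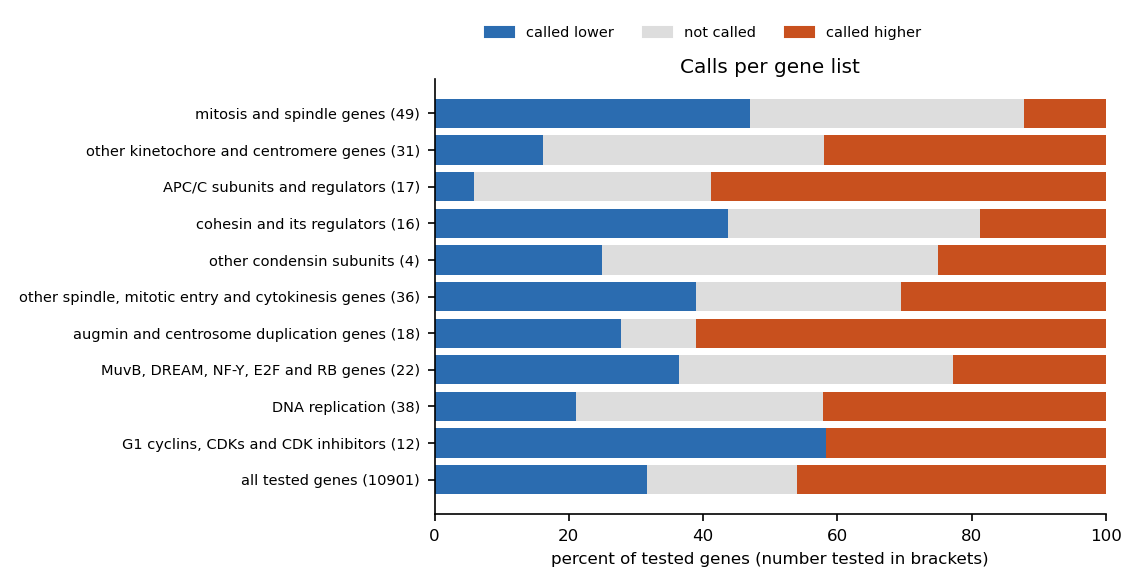
Percent of tested genes (x axis) called lower, not called and called higher on the deposited scale in each gene list (y axis, number tested in brackets), with all tested genes at the bottom. The 49 mitosis and spindle genes have 23 lower and 6 higher, whereas APC/C genes have 1 lower and 10 higher. Without mitochondrial genes in the sums these counts turn to 5 and 23, and to 0 and 15. On that scaling 21.7% of all tested genes are lower and 63.2% higher.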

How the data were processed

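RNA-seq libraries, 3 per group by the genotype label, were analysed from 1 table of 21684 genes whose columns were tied to samples by the names the labels quote; every sample column was used. The deposited values were FPKM computed by the authors, rounded to 3 decimals. Per the submitters' processing notes, the tools named were DESeq2 (1.32.0), featureCounts (2.0.1), HISAT2 (2.2.1) and fastp (0.22.0), and both mm10 and hg38 appear as builds with no role. Annotation release, strand setting and the handling of multiply mapped reads: not given in the sources used here. Per the labels' protocols, RNA was extracted with TRIzol and sequenced on an Illumina NovaSeq6000. FPKM depend on the sum over all genes, so abundant genes can shift all others.

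The 10901 genes that reached 1 FPKM in any 3 libraries were tested with limma 3.58.1 in R 4.3.3 on log2(FPKM + 1), with trended moderation and Benjamini-Hochberg adjusted p under 0.05 over all of them. The pseudocount makes log2 fold changes understate changes of low genes; a change written as a fold is the ratio of 2 group means in FPKM. The script was tested on simulated data. Low values rise in steps of 1 read, from which depth was estimated with exon lengths from GENCODE M21 (mm10) for 21591 genes; 82.9% to 90.8% of low values came within 0.1 of whole reads, not nearly all, so no count test was run. Whether read pairs were counted as 1 or 2 is not known, so relative depths are firmer. At most 0.376% of values were equal between replicates, and none were merged.

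The 49 genes, the gene lists, the pairs and the tests were chosen with earlier results of these data known. Every gene of the 49 is named; values per library are given for the 2 called genes of largest change in each role and the 6 largest falls and 4 largest rises of all, plus genes shown for contrast (Ccnb1, Ccnb2, Ect2), and of each other list up to 2 called genes of largest change. Alternatives were 6 other scalings (TMM unweighted, trimming 30% and 5%; equal sums with and without mitochondrial genes, and without mature myeloid markers as well; upper quartile; quantile), a pseudocount of 0.1, no filter, a filter of 5 FPKM, array weights, no trend, a replicate block and leaving out each library. Of the 49 genes 15 share exonic bases with another annotated gene, 3 on the same strand (Foxm1, Ncapd2, Top2a) and 12 on the opposite strand. The 12 are Ccna2, Cdc20, Cdc25b, Cdc25c, Cdca8, Kif20a, Kif22, Kif4, Nusap1, Plk1, Prc1 and Ube2c. The most shared bases among them were 1271 in Kif20a, 911 in Prc1 and 832 in Kif4. Ccnb1, Ccnb2, Kif22 and Kif4 have an annotated pseudogene copy. The levels of all these genes are uncertain to that extent. Promoter motifs were searched as exact letters with Python 3.11.15.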

Additional observations from a re-analysis of the deposited data

How the results depend on the processing

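Of the 49 genes, 6 were called higher and 23 lower as reported. TMM gave 2 and 35 with a median log2 fold change of -0.24, and equal sums without mitochondrial genes gave 23 and 5 with a median of 0.14, the only alternative that turned the median. Over all tested genes, 59.2% of calls were higher as reported, 49.7% under TMM and 74.4% without mitochondrial genes. The difference between the medians of the 49 genes and of all genes was -0.23 as reported, -0.14 with no filter and between -0.29 and -0.22 with 1 library left out. Leaving out 1 library gave 3 to 6 genes higher, 20 to 26 lower and a median between -0.16 and -0.12, with 4371 to 4831 of all genes higher and 2756 to 3485 lower; the count higher was 3 without empty vector replicate 1 or 3 or RUNX1-RARA replicate 1.

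Same-numbered libraries did not deviate together (correlations 0.02, -0.37 and -0.06). No library correlated best with its own number (differently numbered ones gave -0.31 to 0.40). Deviations from means of 3 libraries are too few to show whether libraries of the 2 groups shared a culture or batch. The main fit was unpaired. With a replicate block 5 genes were higher and 21 lower, and over all genes 4856 and 3374; Bub1, Nuf2 and Ttk lost their calls (adjusted p = 0.0674, 0.073 and 0.0652, limma).

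The sign of single genes turned as follows, on the log2 scale. Under TMM, the value was -0.11 for Ccnb2, -0.10 for Cenpa, -0.079 for Cenpe, -0.10 for Cenpf, -0.00922 for Ect2 and -0.026 for Spc24. With array weights, the value was -0.014 for Ccnb2 and -0.00539 for Cenpf. With equal sums, the value was 0.00672 for Kif4. With equal sums without mitochondrial and mature myeloid genes, the value was 0.000256 for Kif4. With equal sums without mitochondrial genes, the value was 0.23 for Aurkb, 0.00342 for Birc5, 0.089 for Bub1, 0.21 for Bub1b, 0.24 for Ccnb1, 0.14 for Cdca8, 0.13 for Cdk1, 0.14 for Foxm1, 0.092 for Hmmr, 0.053 for Incenp, 0.061 for Kif11, 0.15 for Kif15, 0.15 for Kif20a, 0.22 for Kif2c, 0.24 for Kif4, 0.14 for Mad2l1, 0.015 for Mki67, 0.058 for Ncaph, 0.15 for Ndc80, 0.11 for Nuf2, 0.038 for Prc1, 0.14 for Pttg1, 0.063 for Racgap1, 0.00349 for Smc4 and 0.15 for Top2a. With quantile normalization, the value was 0.025 for Aurkb, 0.028 for Bub1b, 0.040 for Ccnb1, -0.00143 for Cenpf and 0.00677 for Kif4. With upper-quartile scaling, the value was 0.00945 for Ccnb1 and 0.019 for Kif4. With 1 library left out, the sign turned for genes near 0, none of them called: Ccnb1 (-0.068 to 0.041), Ccnb2 (-0.039 to 0.069), Cenpa (-0.00166 to 0.041), Cenpe (-0.00254 to 0.083), Cenpf (-0.029 to 0.041), Ect2 (-0.011 to 0.19), Kif2c (-0.069 to 0.0035) and Kif4 (-0.054 to 0.020). The cause was not tested.

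Nothing here separates a change per cell from a change in cell makeup, and the deposited scale has no external standard. Depths are estimates, and the fewest reads behind a value of the 49 genes were about 428.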
